A study of Cricetiscus sungorus with 24 samples.

Results

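The nuclear genes of respiratory complex III (Uqcr genes and Cyc1), complex IV (the subunit 4 to subunit 8 families of Cox genes) and ATP synthase (Atp5 genes), with cytochrome c (Cycs), were followed in the kidney of Djungarian hamsters. They were chosen by gene symbol alone, and each gene was read from the transcript with the highest total. The rule found 42 of 9681 listed genes in experiment 1 and 44 of 15842 in experiment 2, where Cox6a2 and Cox6b2 were added with 1 read each. In experiment 1 these were 9 genes of complex III, 14 of complex IV, 17 of ATP synthase, Cycs and the processed copy Cox7c-ps1. The counts of Cox7c-ps1 differed from those of Cox7c by 1.98% in experiment 1 and 0.48% in experiment 2, so that their reads could not be told apart, and the copy was left out of all sums, medians and counts. A further listed gene outside the rule, Gm12338, had counts that differed from those of Cox7c by 0.0% in both experiments. Its reads could not be told apart from those of Cox7c either, and how reads were shared out among these entries was not examined.

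Kidney polyA RNA was sequenced as cDNA on a MinION nanopore device. Experiment 1 held adult males, 4 kept in a long photoperiod with 16 h of light (LP), 4 moved to a short photoperiod with 8 h of light for 12 weeks (SP12wk) and 4 kept there for 28 weeks (SP28wk). Experiment 2 held adult females that had been in LP and then had 8 weeks of SP with 8 h of light, of which 6 received a vehicle of saline with dimethyl sulfoxide (SAL) and 6 received 18 µg prolactin in that vehicle (PRL), by daily intraperitoneal injection on 3 days. Every animal of experiment 2 was thus in SP, and the experiments differed in sex, flow cell and weeks of SP and were never put in 1 model.

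Complex III passes electrons from ubiquinol to cytochrome c, the mobile carrier, and pumps protons while it does so. Complex IV, cytochrome c oxidase, hands those electrons to oxygen, and ATP synthase lets the protons flow back through a ring of c subunits whose rotation drives ATP formation in its head. The kidney, and the proximal tubule most of all, is rich in mitochondria because the reabsorption of filtered solutes is paid for in ATP. The core subunits of these complexes that mitochondrial DNA encodes were not analysed here.

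Library totals, with 1 transcript per gene, ran from 15687 to 57585 reads in experiment 1 and from 174053 to 756523 in experiment 2. A read (1 count) was therefore worth 17.4 to 63.8 CPM (reads of a gene per 1000000 reads of the library) in experiment 1 and 1.32 to 5.75 CPM in experiment 2. Proximal tubule markers were present in every library, 12 of 14 listed, with a summed level of 2869 to 5382 CPM in experiment 1 and 2301 to 4656 CPM in experiment 2, and adrenal markers, of which only 1 of 7 was listed in experiment 1 and 3 of 7 in experiment 2, summed to 0 in 11 of the 12 libraries of experiment 1 and to 3.20 to 23.0 CPM in experiment 2. In this bulk tissue, fewer cells of a type and less RNA per cell cannot be told apart.

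LP replicates 2 and 3 stood apart from the other 10 libraries of experiment 1 in these genes. In LP replicate 2, 22 of the 40 subunit genes were below all 10 other libraries, and 11 had no read. In LP replicate 3, 14 of 40 were below all 10. Their TMM scaling factors were 1.41 and 1.25, against 0.770 to 1.15 in the others. DESeq2 size factors were 1.23 and 1.08, against 0.911 to 1.02. Over genes with at least 10 reads in a pair, LP replicate 2 had chi-square values of 8.84 and 9.45 per degree of freedom against LP replicates 1 and 4. LP replicate 3 had 3.58 and 4.00, near the 3.49 between LP replicates 1 and 4, so that it stood apart less. The plot of both libraries against the other 10 shows the 30 subunit genes with at least 100 reads in all. Of these, 23 were under 50% of the median of the other 10 in LP replicate 2 and 3 were so in LP replicate 3.

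**Figure D1:**
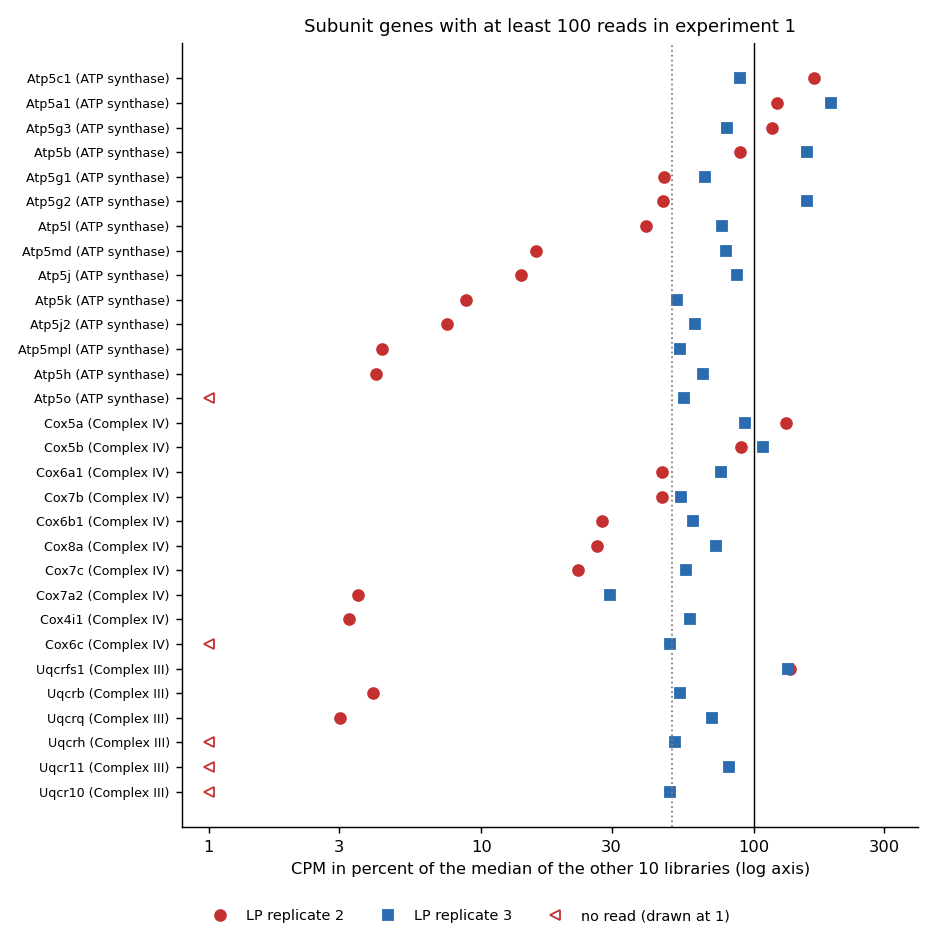
Level of 30 subunit genes in LP replicate 2 (circles) and LP replicate 3 (squares), as a percent of the median CPM of the other 10 libraries of experiment 1, on a log axis; the solid line marks 100%, the dotted line 50%, and open triangles at 1 mark genes with no read. Most circles lie left of the dotted line, 23 of 30, whereas 5 lie at or right of the solid line.

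The deficit of LP replicate 2 was uneven among the subunits. Cox6c, Uqcr10, Uqcrh, Uqcr11 and Atp5o had no read there, Uqcrq stood at 112.2 CPM (3.02% of the median of the other 10) and Cox4i1 at 56.1 CPM (3.27%). Atp5c1, the gamma subunit of the central stalk, stood at 166.1%, the Rieske protein gene Uqcrfs1 at 134.7%, Cox5a at 130.6%, Atp5a1 at 121.1% and Atp5g3 at 116.0%. The catalytic subunit gene Atp5b was at 1458 CPM (88.9%) and the core protein gene Uqcrc1 at 280.4 CPM (97.1%). By complex, the median was 1.51% for 6 genes of complex III, 27.1% for 10 of complex IV and 28.0% for 14 of ATP synthase.

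Genes outside the 3 complexes moved with these libraries too. In LP replicate 2 the median was 19.0% for 25 complex I genes, 42.1% for 76 ribosomal protein genes and 36.3% for 26 other genes with short mRNAs, whereas 3 genes with long mRNAs had a median of 208.5%. In LP replicate 3 the medians were 64.3%, 76.7%, 77.6% and 176.6% in the same order, and 62.0% for complex III, 59.0% for complex IV and 77.5% for ATP synthase. The part of read or RNA length in the LP values was not tested. Sums, ratios, medians and counts that use LP are therefore also given without these libraries, and single genes by their values in every library. Both libraries were set apart by low values of the respiratory genes. Leaving them out thus raises the LP levels of these genes by construction and is no separate check.

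Summed over its subunits, complex III had 8979 ± 5801 CPM in LP (SD, n = 4), 12733 ± 869 in SP12wk (n = 4) and 10865 ± 1184 in SP28wk (n = 4). The 4 LP libraries ran from 1178 CPM, 21 reads of 17830 with a 95% exact Clopper-Pearson interval of 729 to 1800 CPM for counting error only, to 14347 CPM. Without LP replicates 2 and 3, LP had 14347 and 12235 CPM. The LP range held both SP groups, and SP12wk (12038 to 13896 CPM) and SP28wk (9684 to 12450 CPM) overlapped as well.

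Complex IV had 17903 ± 9589 CPM in LP (7011 to 29211), 26570 ± 2276 in SP12wk (23625 to 28749) and 21217 ± 1596 in SP28wk (19853 to 23359). Every SP28wk library was below every SP12wk library on library totals and with DESeq2 size factors (20666 to 23507 against 24329 to 28594), but not with TMM scaling (22317 to 26174 against 24349 to 29406). ATP synthase had 25958 ± 10030 CPM in LP (12563 to 36408), 34288 ± 2360 in SP12wk (31351 to 36908) and 29985 ± 2095 in SP28wk (28619 to 33042), and its ranges overlapped in every pair of groups. LP replicates 1 and 4 had 29211 and 21519 CPM of complex IV and 36408 and 29559 CPM of ATP synthase.

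In experiment 2, complex III had 16280 ± 946 CPM in SAL (SD, n = 6) and 15197 ± 1704 in PRL (n = 6). Complex IV had 31318 ± 2448 in SAL and 29176 ± 2902 in PRL, and ATP synthase had 40413 ± 3166 and 37530 ± 3094. The mean of PRL was below that of SAL for each complex by less than the range within either group. The 3 complexes together took 8.06% to 9.62% of the reads in SAL and 7.69% to 9.64% in PRL. In experiment 1 the share was 2.08% to 8.00% in LP, 6.71% to 7.96% in SP12wk and 5.91% to 6.89% in SP28wk, with 8.00% and 6.33% in LP replicates 1 and 4.

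**Figure D2:**
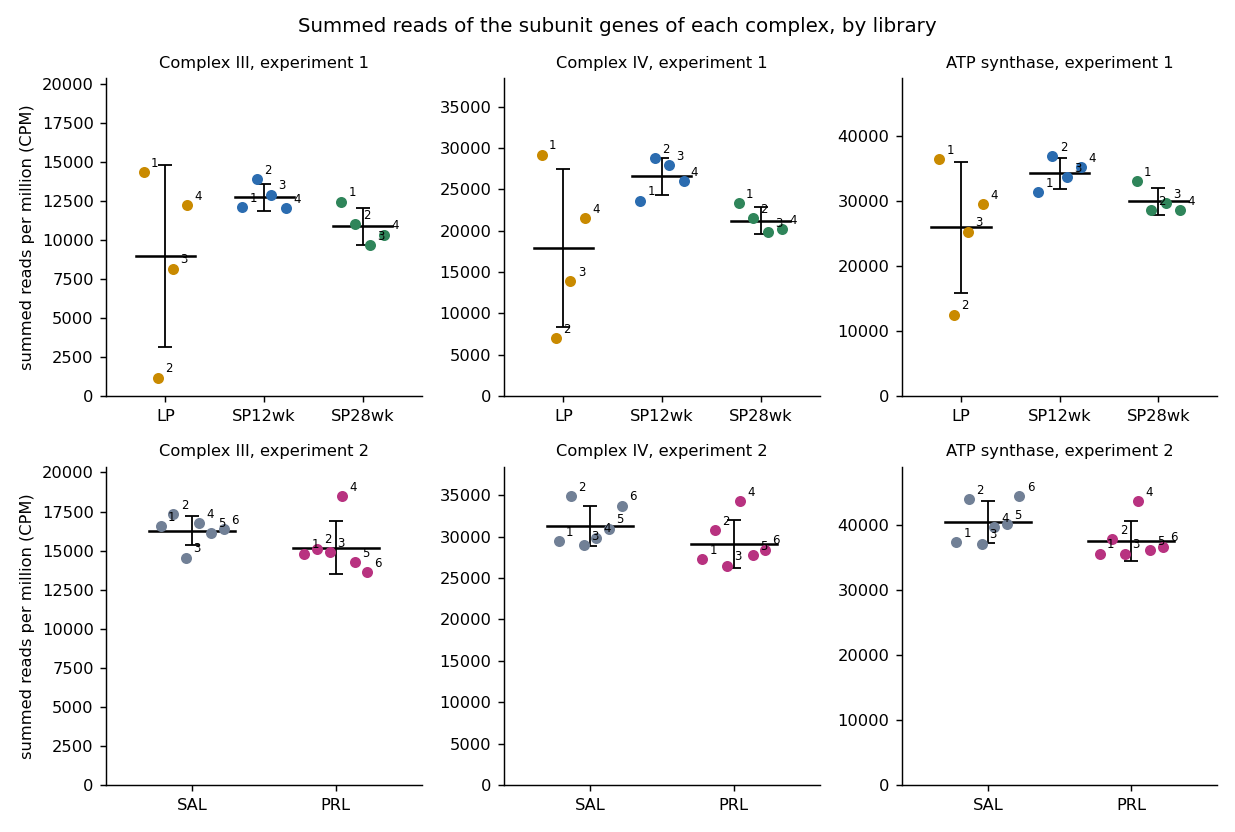
Summed CPM of complex III, complex IV and ATP synthase in each library, by group; numbers mark replicates, lines the mean and bars the SD, with the axis from 0. The LP libraries spread from 1178 to 14347 CPM in complex III, and the SP12wk libraries lie within 12038 to 13896 CPM.

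The ratio between complexes within a library does not depend on the library total. Complex IV stood to ATP synthase as 0.659 ± 0.126 in LP, 0.775 ± 0.0395 in SP12wk, 0.708 ± 0.0333 in SP28wk, 0.775 ± 0.0161 in SAL and 0.777 ± 0.0232 in PRL. Complex III stood to ATP synthase as 0.306 ± 0.147, 0.372 ± 0.0203, 0.362 ± 0.0256, 0.404 ± 0.0261 and 0.404 ± 0.0197 in the same order. Only the LP ratios had an SD above 0.1, and without LP replicates 2 and 3 they were 0.802 and 0.728 for complex IV and 0.394 and 0.414 for complex III. The ratios rest on 1 transcript per gene. With counts summed over transcripts, complex IV had 14331 CPM in SP12wk against 36982 CPM for ATP synthase.

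The spread between libraries was also uneven among genes. It holds counting error, which was not removed, beside differences between animals. Over the 31 genes with at least 100 reads, the coefficient of variation had a median of 65.8% in LP, 18.7% in SP12wk and 16.8% in SP28wk. Atp5g3, 1 of 3 genes for the identical c subunit of the rotor ring, varied least in LP (16.4%) and in SP12wk (7.22%), and Cox7a2 varied most in LP (88.4%). In SP12wk Atp5g3 rested on 295 reads over 4 libraries, so that low values in experiment 1 do not measure the spread between animals. Over LP replicates 1 and 4 alone the median was 19.3%. In SP12wk the most variable gene was Atp5o (94.4%). In experiment 2, over 39 genes, the median was 14.8% in SAL and 19.2% in PRL, and Cox8b was the most variable gene in both (144.9% and 64.3%).

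To ask whether the respiratory genes differed after 12 weeks of SP, SP12wk was compared with LP. None of the 40 genes tested passed an adjusted p of 0.05 (edgeR quasi-likelihood test, Benjamini-Hochberg over 5086 genes), and 1 gene of all did (0.0197%). At an unadjusted p under 0.05 there were 5 of 40 (12.5%), against 7.27% of all genes, and DESeq2 gave none at the adjusted threshold. The fitted log2 fold change was above 0 for 33 of 40, against 52.6% of all genes. Its median was 0.36 in complex III, 0.49 in complex IV and 0.63 in ATP synthase, beside 0.002 over all genes.

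These counts depended on which LP libraries were used. Since LP replicates 2 and 3 were set apart by low values of these same genes, leaving them out had to lower the difference. Over the 3 complexes the median stood 0.545 (log2) above that of all genes, 0.233 without LP replicate 2, and -0.001 relative to it without LP replicates 2 and 3, when 19 of 37 subunit genes were above 0. Without LP replicate 1 it was 0.968 above. The number of genes at an unadjusted p under 0.05 was 0 without LP replicate 2, 16 without LP replicate 1, 13 without LP replicate 4 and 1 without LP replicates 2 and 3.

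In complex III, the accessory subunit gene Uqcr11 had the smallest p of its complex. It was at 1176, 0, 943 and 1049 CPM in LP and at 1390, 2231, 1255 and 1272 CPM in SP12wk. All 4 SP12wk libraries were above all 4 LP libraries, as for 2 of 40 genes against 1.12% of all genes, and no gene of the 40 had the reverse, against 1.55% (log2 fold change 0.99, SE 0.47, adjusted p = 0.615 by edgeR). The two-sided exact permutation test of the mean gave p = 0.0286, unadjusted and the smallest that 4 against 4 libraries allow.

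The other small subunits of complex III were read most. Uqcrq, which sits beside cytochrome b, was at 5409, 112, 2608 and 3807 CPM in LP, 3842, 4462, 3614 and 3165 in SP12wk, and 4387, 3236, 2942 and 3178 in SP28wk. Uqcrb, which lies at the ubiquinone site, was at 3622, 112, 1498 and 2874 CPM in LP, 2943, 2677, 4066 and 3278 in SP12wk, and 2451, 2406, 2714 and 2622 in SP28wk. For both genes LP replicate 1 was above most SP libraries and LP replicate 2 far below all of them. Their log2 fold changes in SP12wk against LP were 0.37 (SE 0.46) and 0.72 (SE 0.46), with adjusted p of 0.898 and 0.670 by edgeR.

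The electron-carrying and core proteins of complex III had means that lay closer together. The redox subunits Cyc1 and Uqcrfs1 summed to 684 ± 173 CPM in LP, 531 ± 61.0 in SP12wk and 612 ± 125 in SP28wk, and the core proteins Uqcrc1 and Uqcrc2 to 485 ± 173, 431 ± 77.2 and 487 ± 135. The 5 small subunits summed to 7811 ± 5803, 11771 ± 911 and 9766 ± 1001 CPM. Without LP replicates 2 and 3, the LP libraries had 470 and 816 CPM of the redox subunits, 376 and 505 of the core proteins, and 13500 and 10915 of the small subunits. In LP replicate 2 the small subunits had 224 CPM and the redox subunits 617 CPM, a reverse of the order in the other libraries. Cyc1, Uqcrfs1 and Uqcrc2 were the 3 genes of complex III whose fitted log2 fold change in SP12wk was below 0 (-0.14, -0.14 and -0.49).

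In complex IV, Cox8a, the general isoform of the smallest subunit, had the smallest p. It was at 3575, 729, 1998 and 1243 CPM in LP, 2085, 3378, 4869 and 3645 in SP12wk, and 3557, 2116, 1743 and 1476 in SP28wk. The groups overlapped, and SP12wk stood above LP by 0.99 on the log2 scale (SE 0.46, adjusted p = 0.607 by edgeR, exact p = 0.114). The genes read most were Cox7c and Cox7a2. Cox7c was at 8091, 1514, 3773 and 6797 CPM in LP, 8257, 9179, 6576 and 7149 in SP12wk, and 6363, 5809, 5542 and 5418 in SP28wk. Cox7a2 was at 3904, 112, 943 and 3146 CPM in LP, 3229, 4080, 3564 and 3391 in SP12wk, and 3004, 2489, 2171 and 2831 in SP28wk. Each of the 4 SP28wk libraries was below each SP12wk library for both genes on this scale.

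In ATP synthase, 3 genes had an unadjusted p under 0.05, all of them outside the catalytic head. Atp5j, coupling factor 6 of the peripheral stalk, was at 1458, 224, 1387 and 1010 CPM in LP and at 1758, 2295, 1958 and 2006 CPM in SP12wk. Its groups did not overlap (log2 fold change 1.08, SE 0.46, adjusted p = 0.600 by edgeR, exact p = 0.0286). Atp5k, the e subunit at the dimer interface, was at 2258, 168, 999 and 1398 CPM in LP, 2412, 2932, 2108 and 2261 in SP12wk, and 1739, 1203, 1314 and 1042 in SP28wk (SP12wk minus LP 1.05, SE 0.46, adjusted p = 0.600 by edgeR).

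The means of the head were ordered otherwise than those of the rest of the enzyme. The 5 genes of the head and central stalk summed to 4163 ± 763 CPM in LP, 3647 ± 789 in SP12wk and 3634 ± 370 in SP28wk. These groups overlapped, and over LP replicates 1 and 4 alone the LP mean of the head was 3672 CPM. The 4 genes of the peripheral stalk summed to 2301 ± 1368, 4146 ± 1533 and 4071 ± 342 CPM, and the 5 small membrane subunits to 13146 ± 7852, 19021 ± 2613 and 15723 ± 1519. The 3 genes of the c ring summed to 6348 ± 1303, 7474 ± 1099 and 6557 ± 610 CPM. On library totals every SP28wk library (3676 to 4428 CPM) was above every LP library (280 to 3293 CPM) in the peripheral stalk, and so it was with TMM scaling (3769 to 5072 against 199.6 to 3453), with no test of the sum, whereas SP12wk (2616 to 5873 CPM) overlapped with both. LP replicates 1 and 4 had 3575 and 3768 CPM of the head, 3293 and 2913 of the peripheral stalk, and 21402 and 16392 of the membrane subunits. LP replicate 2 had 4038 CPM of the head, within the range of the other libraries, beside 280 CPM of the peripheral stalk. Atp5a1, the alpha subunit, was at 1646, 1234, 1942 and 1010 CPM in LP and 736, 1084, 703 and 791 in SP12wk, overlapping between LP replicate 4 and SP12wk replicate 2 (log2 fold change -0.64, SE 0.47, adjusted p = 0.723 by edgeR, exact p = 0.0571).

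The membrane subunits read most were Atp5md, the dimer-associated DAPIT, and Atp5l, subunit g. Atp5md was at 7103, 897, 4439 and 5399 CPM in LP, 7766, 8287, 4568 and 5906 in SP12wk, and 6245, 4232, 4685 and 4585 in SP28wk. Atp5l was at 3387, 1458, 2774 and 3884 CPM in LP, 2698, 3697, 3263 and 3024 in SP12wk, and 4190, 3568, 3714 and 4411 in SP28wk. For Atp5md the means of LP and SP28wk were close (4460 ± 2618 and 4937 ± 894), with 6632 ± 1714 in SP12wk, whereas Atp5l had its highest mean in SP28wk (3971 ± 396).

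To ask whether the genes differed again after prolonged SP, SP28wk was compared with SP12wk, a comparison that holds no LP library. None of 40 passed the adjusted threshold by edgeR or by DESeq2, beside 7 genes of all (0.138% of 5086), and 3 of 40 (7.5%) had an unadjusted p under 0.05, against 6.10% of all genes. On the log2 scale 23 of 40 were above 0, against 58.3% of all genes. The scaling decided this split, since TMM put the median of all genes at 0.155 and library totals put it at 0.010. With library totals 12 of 39 subunit genes were above 0. Relative to all genes the median of the 3 complexes was -0.088 with TMM and -0.108 with library totals, and in complex IV it was -0.361 and -0.380.

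Of the 40 genes, 6 had all SP28wk libraries below all SP12wk libraries on library totals (against 1.53% of all genes). They were Uqcr11 of complex III, Cox7a2 and Cox7c of complex IV, and Atp5g2, Atp5j2 and Atp5k of ATP synthase. With TMM scaling only Atp5k kept that separation (0.826% of all genes). With DESeq2 size factors Atp5j2, Atp5k, Cox7a2, Cox7c and Uqcr11 kept it (1.51% of all genes). Uqcr11 was at 1067, 1162, 600 and 729 CPM in SP28wk (log2 fold change -0.61, SE 0.46, adjusted p = 0.980 by edgeR). Atp5k differed by -0.71 (SE 0.45, adjusted p = 0.979 by edgeR, exact p = 0.0286).

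In the other direction, Cox7a2l and Uqcrc2 had all SP28wk libraries above all SP12wk libraries on library totals (1.85% of all genes). They kept this with TMM (2.28%) and with DESeq2 size factors (1.42%), where Atp5l joined them. Cox7a2l, which joins complexes III and IV in supercomplexes, was at 94.1, 56.1, 0 and 117 CPM in LP, 0, 63.8, 100 and 84.8 in SP12wk, and 158, 249, 257 and 174 in SP28wk. It rested on 6, 6 and 29 reads per group, and every SP28wk library was above every other library. It differed by 1.81 (SE 0.72) against SP12wk on the log2 scale and by 1.80 (SE 0.72) against LP, with adjusted p of 0.614 and 0.471 by edgeR and exact p of 0.0286 in both. Uqcrc2, a core protein, was at 141, 56.1, 444 and 194 CPM in LP, 123, 128, 151 and 113 in SP12wk, and 198, 208, 171 and 208 in SP28wk.

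**Figure D3:**
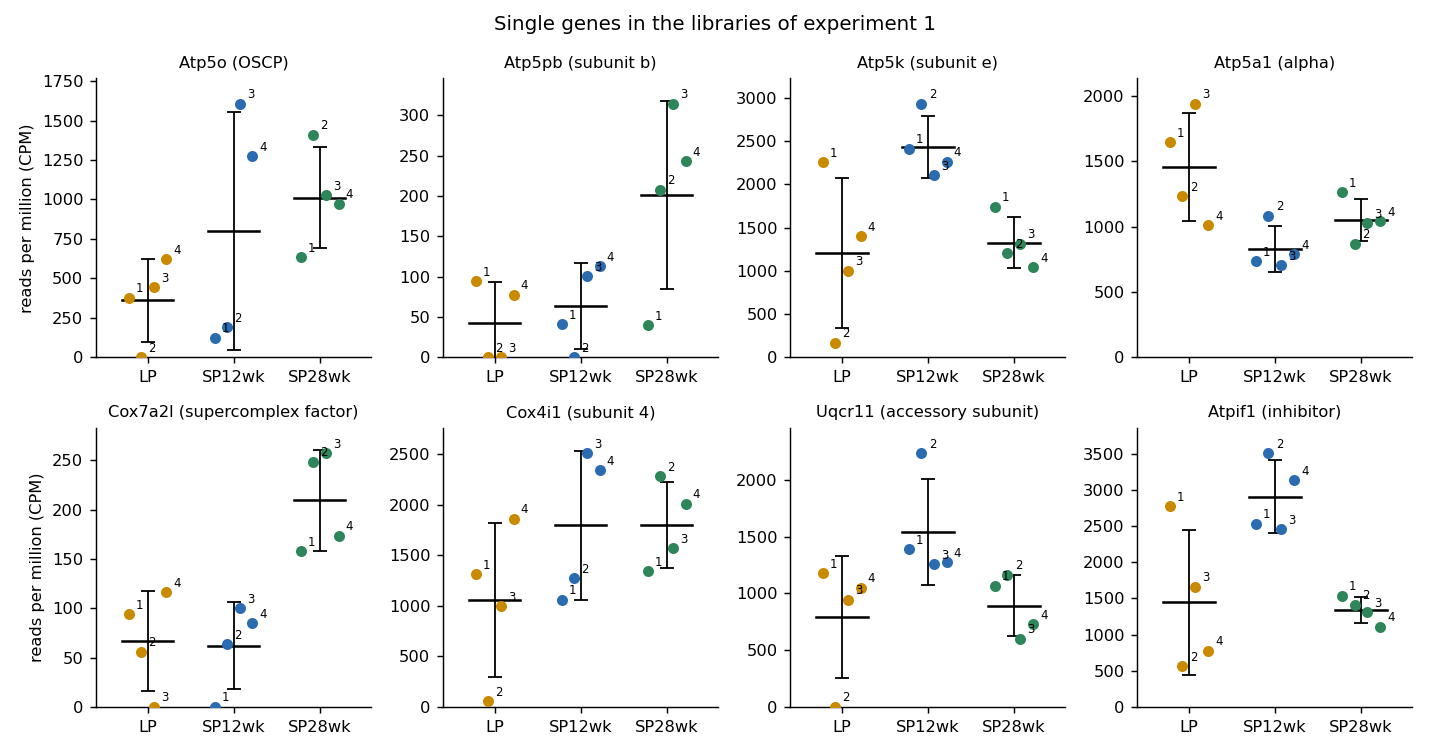
CPM of Atp5o, Atp5pb, Atp5k, Atp5a1, Cox7a2l, Cox4i1, Uqcr11 and the inhibitor gene Atpif1 in each library of LP, SP12wk and SP28wk, with mean and SD (n = 4). Cox7a2l lies at 158 to 257 CPM in SP28wk and at 0 to 117 CPM in the other 8 libraries, whereas Atpif1 lies highest in SP12wk apart from LP replicate 1.

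Cox8b had the smallest p of complex IV in this comparison, through a group without a read. It was at 0, 0, 55.5 and 117 CPM in LP, 0, 255, 0 and 28.3 in SP12wk, and 0 in all 4 SP28wk libraries. With a floor of 3 reads over the group, SP28wk could have held up to 21.1 CPM. The observed level of SP12wk (5 reads, 52.4 CPM over the group) was 2.48-fold that floor, and that of LP (4 reads, 48.3 CPM) 2.29-fold. These ratios take the 5 and 4 reads as exact, so that they are no lower bounds of the difference. At these ratios Cox8b still lies below the median of the subunit genes, which therefore stays as given. The edgeR adjusted p was 0.614 and the exact p 0.429. In SP12wk, 4 of the 5 reads lay in replicate 2, the library with 255 CPM of Ucp1, the uncoupling protein of brown fat, against 0 in the other 3.

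SP28wk was also compared with LP. None of 40 genes passed the adjusted threshold by edgeR or by DESeq2, beside 11 genes of all (0.216%), and 9 of 40 (22.5%) had an unadjusted p under 0.05, against 8.61% of all genes. Above 0 on the log2 scale were 36 of 40, including all 9 of complex III, against 58.7% of all genes. The median over the 3 complexes was 0.42, which was 0.241 above that of all genes. Without LP replicate 2 that excess was 0.001, and without LP replicates 2 and 3 it was -0.142, with 19 of 37 above 0. Here too, both libraries had been set apart by low values of these genes. Without LP replicate 1 it was 0.670 and without LP replicate 4 it was 0.506. The number at an unadjusted p under 0.05 ran from 3 to 13 with single libraries left out, 13 without LP replicate 1 and 3 without LP replicate 3 or SP28wk replicate 4, and it was 2 without LP replicates 2 and 3 and 0 with counts summed over transcripts.

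The stalk genes of ATP synthase had the smallest p. Atp5o, the OSCP subunit that ties the peripheral stalk to the head, was at 376, 0, 444 and 622 CPM in LP, 123, 191, 1606 and 1272 in SP12wk, and 632, 1411, 1028 and 972 in SP28wk. All SP28wk libraries lay above all LP libraries, though the nearest pair were 622 and 632 CPM, as for 2 of 40 genes against 1.57% of all genes. With TMM scaling it was 4 of 40 against 2.44%, and with DESeq2 size factors 4 of 40 against 1.79%. No gene of the 40 had the reverse, against 1.73% of all genes. The log2 fold change was 1.72 (SE 0.50, p = 0.000516, adjusted p = 0.109 by edgeR, exact p = 0.0286). Without LP replicate 4, the highest LP library, it was 2.22 with an adjusted p of 0.0109 by edgeR, the only setting that called Atp5o in this comparison. Leaving out the highest LP library raises the difference by construction. That setting called 54 of 4888 genes, 51 of them higher, against 11 of 5086 with all libraries. SP12wk fell into a low pair and a high pair, and its difference from LP was 1.28 (SE 0.51, adjusted p = 0.600 by edgeR, exact p = 0.371).

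Atp5pb, subunit b of the same stalk, was at 94.1, 0, 0 and 77.7 CPM in LP, 40.9, 0, 100 and 113 in SP12wk, and 39.5, 208, 314 and 243 in SP28wk, on 4, 7 and 31 reads. SP28wk replicate 1 lay within the LP range and the other 3 above it (log2 fold change 2.37, SE 0.77, adjusted p = 0.232 by edgeR, exact p = 0.0857). Over the 3 groups together, the F test of edgeR gave Atp5o an adjusted p of 0.276, Atp5pb 0.308 and Cox7a2l 0.546, and called 14 of 5086 genes (0.275%), none of them respiratory.

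In complex IV, Cox4i1, the subunit through which ATP slows the oxidase, was at 1317, 56.1, 999 and 1864 CPM in LP, 1063, 1275, 2510 and 2345 in SP12wk, and 1344, 2282, 1571 and 2014 in SP28wk (log2 fold change 1.00, SE 0.46, adjusted p = 0.538 by edgeR). Cox6a1 was at 706, 336, 555 and 583 CPM in LP, 81.8, 765, 954 and 452 in SP12wk, and 514, 830, 1057 and 1059 in SP28wk (1.00, SE 0.48, adjusted p = 0.547 by edgeR). In complex III, Uqcrh, the hinge protein between cytochromes c1 and c, was at 1599, 0, 832 and 1593 CPM in LP, 1431, 1976, 2008 and 1809 in SP12wk, and 1620, 2033, 1628 and 1563 in SP28wk (0.97, SE 0.46, adjusted p = 0.547 by edgeR, exact p = 0.143). For Uqcrh and Cox4i1 the low LP values were those of replicates 2 and 3, and the other LP libraries lay near the SP28wk values.

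**Figure D4:**
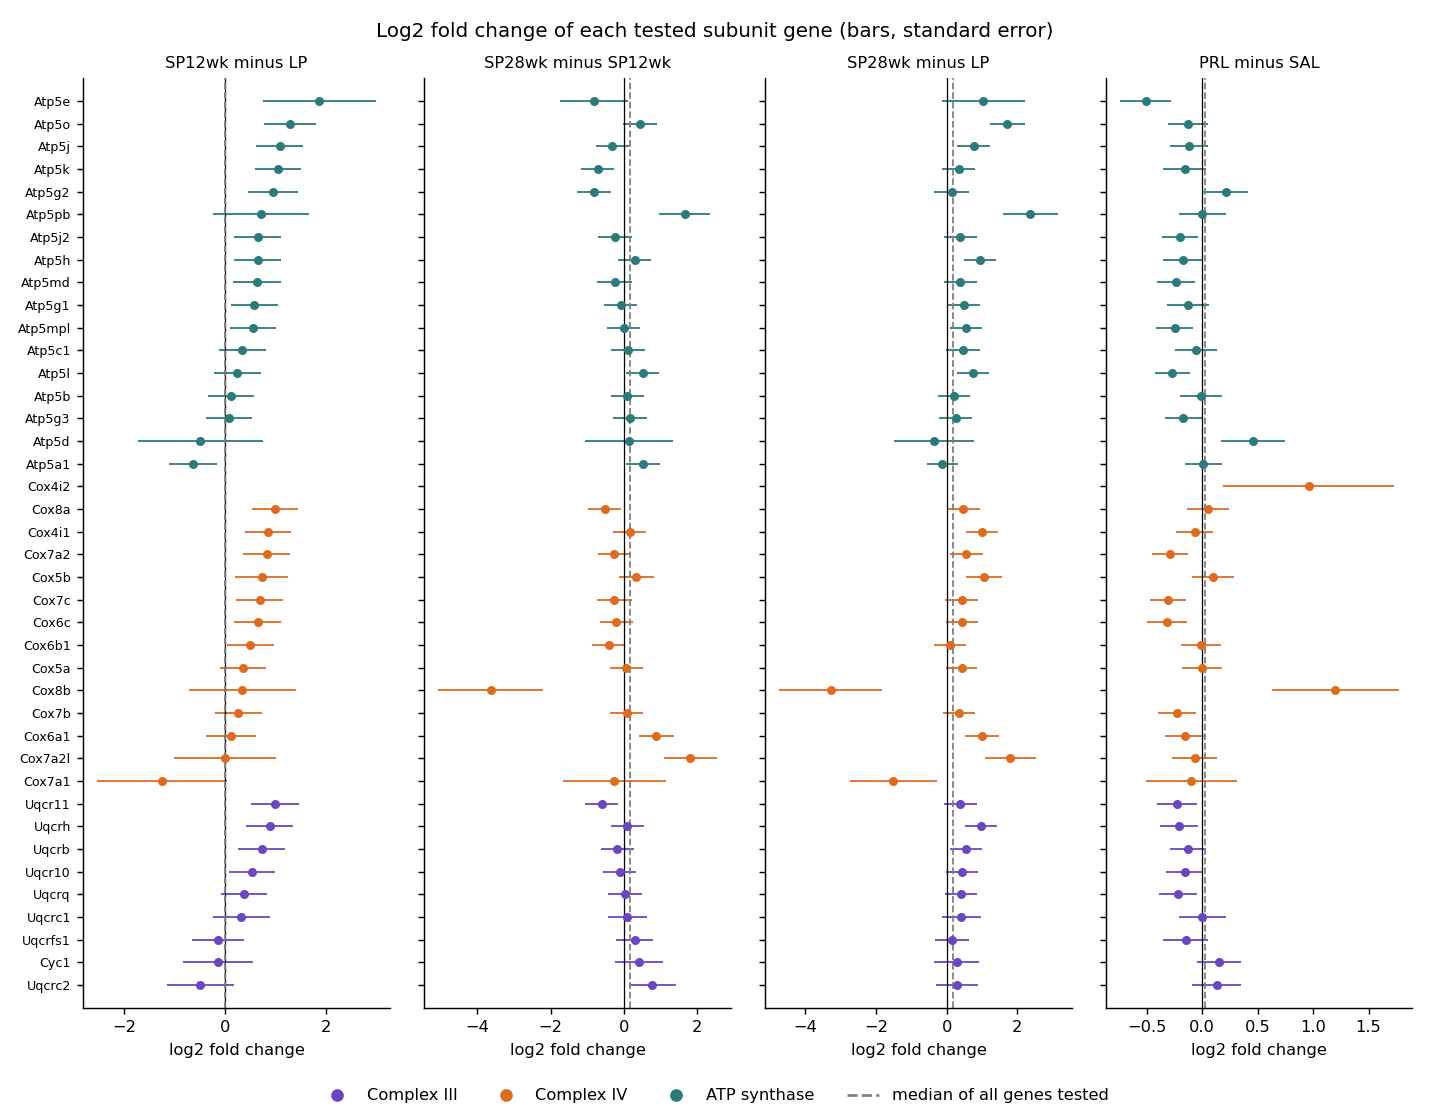
Fitted log2 fold changes of the respiratory genes in the 4 comparisons, coloured by complex, with bars for the SE and a dashed line at the median of all genes tested. The genes lie mostly right of the line in SP12wk and SP28wk against LP, on both sides of it in SP28wk against SP12wk, and mostly left of it in PRL against SAL, where Cox4i2 and Cox8b lie farthest right; the axes differ in range, and the Cox8b values of SP28wk are against a group without a read.

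To ask whether prolactin acted on these genes in SP, PRL was compared with SAL. None of 41 passed the adjusted threshold by edgeR or by DESeq2, beside 0.0% of 10696 genes, and 2 of 41 (4.88%) had an unadjusted p under 0.05, the same share as among all genes (4.88%). It was above 0 on the log2 scale for 9 of 41, against 52.7% of all genes. On library totals 16 of 42 were above 0, the copy included. The median was -0.15 in complex III, -0.07 in complex IV and -0.13 in ATP synthase, beside 0.03 over all genes. The median of the 3 complexes relative to all genes ran from -0.196 to -0.104 over the settings tried. No gene had groups that did not overlap, beside 0.112% of all genes higher and 0.0280% lower.

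The genes read most had small differences. Uqcrq ran from 3503 to 4784 CPM in SAL (median 4189) and from 3125 to 5150 in PRL (median 3584), with a log2 fold change of -0.22 (SE 0.17, adjusted p = 0.998 by edgeR). Uqcrb ran from 3580 to 4133 CPM in SAL (median 3888) and from 3307 to 4207 in PRL (median 3632). Cox7a2 ran from 4266 to 5942 CPM in SAL (median 5305) and from 3873 to 5886 in PRL (median 4262), with -0.29 (SE 0.16).

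Cox7c ran from 6787 to 8118 CPM in SAL (median 7833) and from 5210 to 8355 in PRL (median 6076). Its log2 fold change was -0.31 (SE 0.16, adjusted p = 0.998 by edgeR), and the exact permutation p of 0.0455 was unadjusted. PRL replicates 1, 2, 5 and 6 lay below the SAL range and PRL replicate 4 lay above it. Atp5md ran from 5741 to 9406 CPM in SAL (median 7589) and from 5656 to 9329 in PRL (median 5967), and Atp5j2, subunit f, from 4745 to 6681 (median 5619) and from 4449 to 6451 (median 5028).

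Atp5e, the epsilon subunit of the central stalk, had the smallest p of ATP synthase. It ran from 86.8 to 198 CPM in SAL (median 138) and from 63.3 to 138 in PRL (median 107). The groups overlapped (log2 fold change -0.51, SE 0.23, adjusted p = 0.994 by edgeR, exact p = 0.0823). Atp5pb, which was near its floor in experiment 1, ran from 381 to 1046 CPM in SAL and from 525 to 1275 in PRL (log2 fold change -0.00, SE 0.21).

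Cox8b, the subunit 8 isoform of heart, skeletal muscle and brown fat, had the highest coefficient of variation in both groups among the 39 respiratory genes with at least 100 reads. It was at 21.6, 0, 4.57, 3.76, 199 and 282 CPM in SAL (median 13.1) and at 72.0, 33.0, 293, 239, 402 and 267 CPM in PRL (median 253). PRL libraries 3 to 6 and SAL libraries 5 and 6 were high, so that the groups overlapped. The log2 fold change was 1.20 (SE 0.57, adjusted p = 0.994 by edgeR, exact p = 0.0887). With no filter on low counts it passed (1.18, adjusted p = 0.00144 by edgeR), in a setting that called 92 of 15826 genes, 17 higher and 75 lower. DESeq2 gave 1.22 (SE 1.17, adjusted p = 0.9995), and counts summed over transcripts gave 1.22 (SE 0.989, adjusted p = 0.9999 by edgeR). Without SAL replicate 6, the highest SAL library, the log2 fold change was 2.11, with an adjusted p of 0.0734 by edgeR. Leaving out the highest SAL library raises the difference by construction, and that setting called 27 of 10460 genes. With any other single library left out, the log2 fold change was 0.88 to 1.62, with adjusted p of 0.838 to 0.9998 by edgeR. Cox8a, the general isoform, ran from 2124 to 3366 CPM in SAL and from 1712 to 4254 in PRL (0.05, SE 0.19).

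Of the fat genes, Ucp1 and Fabp4 moved with Cox8b, and Adipoq did so less. Ucp1 was at 0, 0, 0, 0, 15.3 and 9.60 CPM in SAL and at 1.68, 0, 19.8, 13.8, 63.2 and 22.7 CPM in PRL. Fabp4, the fatty acid carrier of adipocytes and endothelium, was at 51.4, 44.2, 82.2, 35.7, 208 and 189 CPM in SAL and at 109, 70.1, 194, 142, 155 and 250 CPM in PRL. Adipoq, on 9 and 16 reads, was at 0, 0, 4.57, 0, 21.4 and 3.20 CPM in SAL. In PRL it was at 5.03, 2.64, 3.95, 4.60, 28.7 and 11.3 CPM. Over the adipose list, of which 7 of 8 markers were listed, the sum was 75.2 to 300 CPM in SAL and 145 to 385 CPM in PRL. Of 6 adipose genes tested, 5 had a log2 fold change above 0 and 1 below. SAL replicates 5 and 6 were the highest of SAL in Cox8b, Ucp1, Fabp4 and the adipose sum, and PRL replicates 1 and 2 were the lowest of PRL in all 4. Ucp1 differed by 1.73 (SE 0.81) and Fabp4 by 0.53 (SE 0.33), with adjusted p of 0.994 and 0.998 by edgeR. The muscle list, 7 of 10 markers listed, summed to 119 to 284 CPM in SAL and 112 to 362 CPM in PRL. The part of fat in the Cox8b values was not tested.

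**Figure D5:**
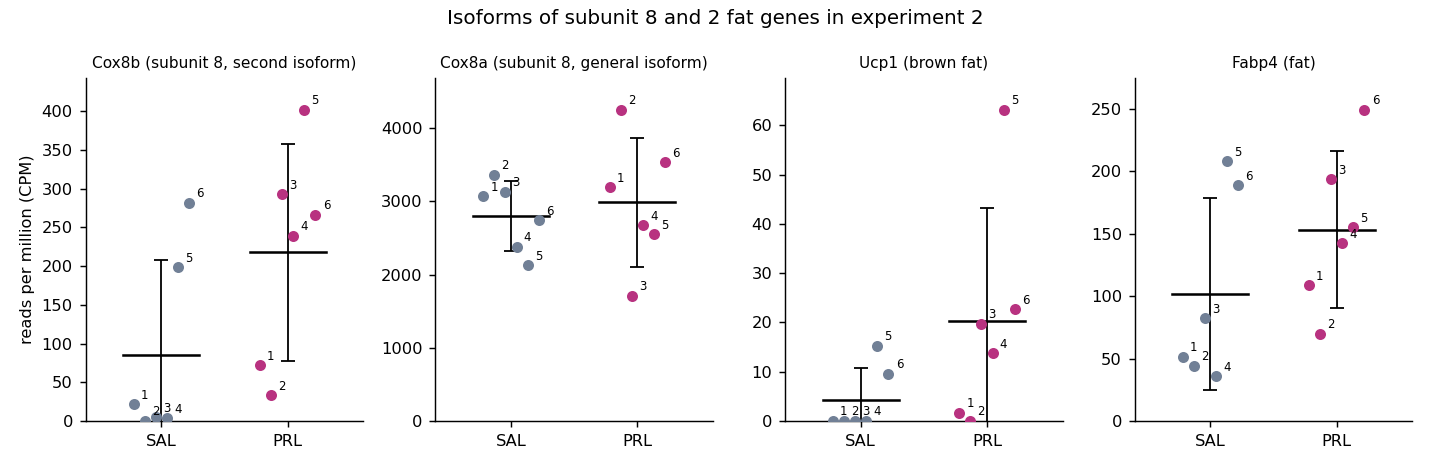
CPM of the subunit 8 isoforms Cox8b and Cox8a and of the fat genes Ucp1 and Fabp4 in each SAL and PRL library, with mean and SD (n = 6). SAL replicates 5 and 6 lie with the PRL libraries for Cox8b, Ucp1 and Fabp4, and Cox8a ranges from 1712 to 4254 CPM with no such split.

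The isoform sets were otherwise those of a general epithelial tissue. Cox4i2, the isoform of lung and hypoxic cells, had 1 of 535 reads of subunit 4 in experiment 1 and 17 of 10235 in experiment 2, where the share was 0.102% ± 0.125 in SAL and 0.230% ± 0.144 in PRL. Cox6a2, of heart and muscle, had 1 of 9595 reads of subunit 6a in experiment 2 and none beside 226 in experiment 1, which allows a share of up to 1.33%. Cox6b2, of testis, had 1 of 13977 reads in experiment 2 and none beside 664 in experiment 1, which allows up to 0.452%. Cox7a1, of heart and muscle, had 5 of 897 reads beside Cox7a2 in experiment 1 and 68 of 21301 in experiment 2 (0.294% ± 0.0415 in SAL, 0.367% ± 0.204 in PRL). Cox8b was the largest minor isoform, with 9 of 783 reads of subunit 8 in experiment 1 and 522 of 14285 in experiment 2 (3.15% ± 4.50 in SAL, 7.74% ± 5.68 in PRL). These shares compare reads and were not corrected for length.

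Cox6b1, the partner isoform of Cox6b2, was at 4422, 617, 1332 and 1554 CPM in LP, 2166, 3378, 2761 and 2543 in SP12wk, and 2174, 2282, 1314 and 1528 in SP28wk. In experiment 2 it ran from 2571 to 3639 CPM in SAL and from 2218 to 3922 in PRL (log2 fold change -0.01, SE 0.18). Cox7a1 itself was at 9.13 to 19.2 CPM in SAL and 5.75 to 36.8 CPM in PRL.

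The c ring of ATP synthase is built from Atp5g1, Atp5g2 and Atp5g3, which encode the same mature protein behind different import sequences. In SP12wk they gave 46.8% ± 2.05, 11.8% ± 2.65 and 41.4% ± 4.61 of the c subunit reads, in SP28wk 45.6% ± 3.39, 7.39% ± 2.12 and 47.0% ± 4.43, and in LP 38.5% ± 10.1, 8.87% ± 5.97 and 52.6% ± 12.3. The shares use 1 transcript per gene, of 3 listed for Atp5g1, 1 for Atp5g2 and 5 for Atp5g3. Reads on the other transcripts were left out, and shares with them were not examined. LP replicates 1 and 4 had 50.9% and 40.1% of Atp5g1, 8.67% and 4.19% of Atp5g2, and 40.5% and 55.7% of Atp5g3. In experiment 2 the mean was higher for Atp5g1 (53.5% ± 3.77 in SAL and 52.0% ± 4.10 in PRL) than for Atp5g3 (32.0% ± 2.81 and 30.7% ± 4.12). Atp5g3 was read from different transcripts in the 2 experiments, as were Atp5j, Atp5mpl, Cox7a2l and Cyc1, so that its shares were not compared between them. Atp5g2 gave 14.4% ± 2.81 in SAL and 17.4% ± 2.37 in PRL.

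By library, Atp5g2 was at 706, 280, 943 and 272 CPM in LP, 613, 638, 1155 and 1215 in SP12wk, and 553, 539, 600 and 260 in SP28wk (SP28wk minus SP12wk -0.81, SE 0.47, adjusted p = 0.914 by edgeR). Atp5g1 was at 4139, 1402, 1998 and 2602 CPM in LP, 2861, 3060, 4016 and 4097 in SP12wk, and 3636, 2780, 2971 and 2605 in SP28wk. Atp5g3 was at 3293, 3646, 2497 and 3612 CPM in LP, 2820, 3124, 2962 and 3335 in SP12wk, and 3043, 2738, 3342 and 3161 in SP28wk. For Atp5g3, LP replicate 2 was the highest library of all 12, where most subunit genes had their lowest value. In experiment 2, the log2 fold changes were -0.13 (SE 0.19) for Atp5g1, 0.21 (SE 0.20) for Atp5g2 and -0.17 (SE 0.17) for Atp5g3.

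Cycs, cytochrome c itself, was at 800, 112, 222 and 272 CPM in LP, 286, 638, 602 and 622 in SP12wk, and 474, 373, 571 and 608 in SP28wk. Its log2 fold change was 0.69 (SE 0.52) in SP12wk and 0.82 (SE 0.51) in SP28wk against LP, with adjusted p of 0.761 and 0.720 by edgeR. In experiment 2 it ran from 298 to 507 CPM in SAL and from 295 to 461 in PRL (-0.08, SE 0.19).

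Atpif1, the inhibitor that blocks ATP synthase from running in reverse and is no subunit, was read beside them. It was at 2775, 561, 1665 and 777 CPM in LP, 2534, 3506, 2460 and 3137 in SP12wk, and 1541, 1411, 1314 and 1111 in SP28wk. On library totals all SP28wk libraries were below all SP12wk libraries, as for 1.53% of all genes, and LP replicate 1 lay within the SP12wk range. The log2 fold change was 1.12 (SE 0.46, adjusted p = 0.600 by edgeR) in SP12wk against LP and -0.95 (SE 0.45, adjusted p = 0.740 by edgeR, exact p = 0.0286) in SP28wk against SP12wk. In experiment 2 it ran from 1435 to 2354 CPM in SAL and from 1269 to 2287 in PRL (-0.04, SE 0.18).

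The rest of the pathway was read from fixed lists. Of 38 complex I genes, 35 had a log2 fold change above 0 in SP12wk against LP, with a median of 0.85, and none passed the adjusted threshold. In SP28wk against LP 37 of 38 were above 0, and Ndufb7 was the 1 gene called (3.32, SE 0.63, adjusted p = 0.000195 by edgeR). Ndufb7 had 1, 2, 0 and 3 reads in LP and 4, 13, 23 and 52 in SP28wk, and it was not called by DESeq2 (adjusted p = 0.223), with counts summed over transcripts (0.654 by edgeR) or without LP replicates 2 and 3 (2.88, adjusted p = 0.0740 by edgeR). Without these libraries, 33 of 37 complex I genes were above 0 in SP12wk and 24 of 37 in SP28wk against LP, and 3 and 4 of 4 complex II genes. In PRL against SAL 7 of 41 were above 0, with a median of -0.14. Complex II, which feeds electrons from succinate, had 3, 4 and 1 of 4 genes above 0 in those comparisons, and none was called. In SP28wk against SP12wk 16 of 38 complex I genes and 2 of 4 complex II genes were above 0.

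Assembly factors and regulators were read thinly. Of the assembly factors of complex IV, 8 of 12 were above 0 in SP12wk and 12 of 12 in SP28wk against LP, and 11 of 25 in PRL. The copper carrier gene Cox17 had the smallest p in SP28wk (1.45, adjusted p = 0.325 by edgeR). For the assembly factors of complex III the counts were 4 of 5, 4 of 5 and 4 of 7, and for those of ATP synthase 2 of 2, 2 of 2 and 4 of 5. Carriers and pores of adenine nucleotide and phosphate exchange had 2 of 7, 4 of 7 and 6 of 8 above 0. The regulators of respiratory genes had 2 of 4, 2 of 4 and 7 of 13, with Tfam, the packaging protein of mitochondrial DNA, at 0.81 in PRL (adjusted p = 0.986 by edgeR). In SP28wk against SP12wk the counts of these 5 lists, in the same order, were 10 of 12, 2 of 5, 1 of 2, 6 of 7 and 2 of 4. None of their genes passed the adjusted threshold in any comparison. Without LP replicates 2 and 3, the counts in SP12wk against LP were 6 of 12, 3 of 5, 2 of 2, 3 of 7 and 2 of 4, and in SP28wk against LP 10 of 12, 4 of 5, 1 of 2, 6 of 7 and 2 of 4.

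Genes of other functions with short mRNAs stood beside these counts. In SP12wk against LP, 68 of 82 ribosomal protein genes and 35 of 38 other genes with short mRNAs were above 0, and 12 of 20 genes with long mRNAs. In SP28wk against LP the counts were 80 of 82, 35 of 38 and 7 of 20. Without LP replicates 2 and 3 they were 32 of 82, 25 of 38 and 7 of 17 in SP12wk and 52 of 82, 24 of 38 and 9 of 17 in SP28wk. In SP28wk against SP12wk they were 63 of 82, 22 of 38 and 8 of 20, and in PRL against SAL 25 of 85, 20 of 38 and 11 of 22. Ribosomal protein genes and other short mRNAs thus lay mostly above 0 against LP when all LP libraries were used, and none of the lists was tested against another.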

How the data were processed

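Kidney cDNA of 24 hamsters was sequenced on 1 flow cell per experiment. Guppy was used by the authors for basecalling and demultiplexing, Porechop for adapters, Filtlong for selection of reads and Minimap2 for alignment to a mouse reference. The kit is a direct cDNA kit in the methods and a PCR-cDNA kit in the labels, with equal catalogue numbers. The labels' processing notes name Salmon beside minimap2, without its role. What the authors deposited were estimated counts, unscaled, for each mouse RefSeq transcript, with 36662 transcripts in experiment 1 and 71590 in experiment 2. Reads of the hamster were thus named by mouse genes, and none was listed under a name of the 13 mitochondrially encoded proteins or with the prefix mt-. All value columns were used.

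For each gene symbol the transcript with the highest total was kept, and CPM was its count divided by the sum of that table in the library. Counts were rounded and fitted with edgeR 4.0.16 in R 4.3.3 (quasi-likelihood test, TMM, no covariate, 1 model per experiment), keeping genes seen in no fewer than 4 (experiment 1) or 6 (experiment 2) of the 12 libraries, with Benjamini-Hochberg adjustment over all genes tested. The SE was the size of the log2 fold change divided by the square root of F. For single genes the difference in mean CPM was also put to an exact permutation test (two-sided, unadjusted), whose smallest p was 0.0286 for 4 against 4 and 0.00217 for 6 against 6. The fit was tested on simulated counts. Replicates were separate animals, and the 48 pairs of libraries within groups had chi-square values of 1.89 to 10.1 per degree of freedom, above counting noise. Intervals and floors of 3 reads cover counting error only.

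The genes, the lists of other genes and the tests were chosen with earlier results of these data known. Values in every library are given for the 2 genes of each complex with most reads, the gene of each complex with the smallest p in a comparison, genes past the adjusted threshold, the isoform sets, Cycs and Atpif1. Of other lists, called genes or the gene with the smallest p could be named. Cox6b1, Cox7c-ps1, Uqcrc2, Atp5a1, Atp5j, Atp5k and the fat genes were named beyond this rule or after their values were seen. Alternatives were no filter, a filter of 8 or 12 libraries, DESeq2 1.42.0, its size factors, library totals, counts summed over transcripts, a total without the 10 genes with most counts, a replicate block and each library left out. LP replicates 2 and 3 left out together, and Cox7c-ps1 added to complex IV, were chosen after the data were seen. Gene lengths and sequences were not used here.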

Additional observations from a re-analysis of the deposited data

Results flagged for a closer look

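In 135 groups of values, 10 held a library whose gap to the nearest other library was larger than Dixon's 95% limit for its share of the range, where chance gives about 1 in 20. In complex III, Uqcr11 was at 2231 CPM in SP12wk replicate 2 and Uqcrh at 2033 CPM in SP28wk replicate 2, each above the rest of its group, and the sum of complex III was 18493 CPM in PRL replicate 4. That library also stood above the other PRL libraries in the sum of ATP synthase, at 43608 CPM. Cycs was at 286.1 CPM in SP12wk replicate 1, below the rest. Atpif1 was at 1269 CPM in PRL replicate 3, below the rest.

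The other 4 rest on few reads. Cox8b was at 255 CPM in SP12wk replicate 2, on 4 reads. Cox7a1 was at 28.26 CPM in SP12wk replicate 4 and at 39.52 CPM in SP28wk replicate 1, on 1 read each, and Atp5e was at 77.69 CPM in LP replicate 4, on 2 reads, with no read in the other libraries of the group.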

How the results depend on the processing

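Depth limits experiment 1, where a read was worth 17.4 to 63.8 CPM and Cox7a2l, Atp5pb and Cox8b had fewer than 50 reads each. Over the alternatives, 1801 values of single genes kept their direction and side of the threshold or moved by under 1 SD, 52 moved by more, 3 passed the threshold only there, and no called value turned its direction. Of the levels of complexes, medians and counts of calls, 571 values held in the same sense and 68 moved. The median of the 3 complexes in SP28wk against SP12wk was 0.067 with TMM and -0.098 with library totals. In SP12wk against LP the count of genes called was 1 and became 0 with no filter, the strict filter, library totals, DESeq2, counts summed over transcripts and the replicate block, 2 without LP replicates 2 and 3, and 0 to 8 with single libraries left out. In SP28wk against SP12wk it was 7 and became 2 with the strict filter, 2 with DESeq2, 0 with summed counts, 18 without LP replicates 2 and 3, and 2 to 11 with single libraries left out. In SP28wk against LP it was 11 and became 5, 2, 0 and 2 under the same settings, and 8 to 54 with single libraries left out. The F test called 14, then 6, 3 and 0 with the strict filter, DESeq2 and summed counts, and 10 to 40 with single libraries left out. In PRL against SAL it was 0 and became 92 with no filter, 1 with summed counts, 94 with the replicate block, and 0 to 44 with single libraries left out. The cause of these shifts was not tested.

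Of the respiratory genes, 1 (Atp5o) was called without LP replicate 4, in SP28wk against LP and in the F test (0 to 1 with single libraries left out), and 1 (Cox8b) with no filter and with the replicate block (1.99, adjusted p = 1.56e-07 by edgeR) in PRL against SAL. Over all genes, the calls in these settings were 54 and 40 where Atp5o was called, and 92 and 94 where Cox8b was called. The labels give no pairing of animals by replicate number. Same-numbered libraries had correlations of -0.0805 to 0.169 in experiment 1 and -0.145 to 0.195 in experiment 2. Differently numbered ones had -0.186 to 0.187 and -0.197 to 0.174, which gives no sign of pairing but cannot exclude it. The replicate block gave 0, 6, 12 and 15 calls in experiment 1 and changed no other call of a respiratory gene.

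Levels moved with the way of counting. Summed over transcripts, complex III had 7441.6 CPM in SP12wk, 6323.8 in SP28wk, 9643.1 in SAL and 8837.5 in PRL, complex IV 14331, 11527, 16401 and 15266 in the same order, and ATP synthase 36982 in SP12wk. On a total without the 10 genes with most counts, complex III had 13998 in SP12wk and 17530 in SAL, complex IV 29192 in SP12wk and 23327 in SP28wk, and ATP synthase 37703 and 32955. With Cox7c-ps1 added, complex IV had 34496 in SP12wk, 27083 in SP28wk, 38959 in SAL and 35666 in PRL.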
